A study of Mus musculus with 6 samples.

Results

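The genes described here are 49 genes of DNA replication and mitosis, chosen by name among the 18493 genes of the deposited expression table. They cover replication licensing, cyclins and their kinases, mitotic kinases, and the genes of the kinetochore, spindle and cytokinesis. Each was found once in the table, and all 49 passed the filter on low counts that left 12887 genes for testing. By the phase in which their products are best known to act, 17 were taken as S phase genes and 32 as mitotic genes.

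RNA was sequenced from regulatory T (Treg) cells, the Foxp3-expressing CD4 T cells that hold other immune cells in check. The cKO group was 3 libraries of YFP+ Treg cells of Foxp3cre/+ TKTfl/fl female mice, in which Tkt, the gene of transketolase, is deleted in cells with Cre made from the Foxp3 locus. The WT group was 3 libraries of YFP+ Treg cells of Foxp3cre/+ female mice with no floxed Tkt. All animals were untreated C57BL/6 mice aged 7 weeks, and cells came from spleen and lymph node as a CD4+CD25+YFP+ sort. The design text calls the mice of both groups chimeric. The Cre allele is on the X chromosome and present in 1 copy in both groups, so these females also hold Treg cells without Cre, which the YFP gate leaves out. Whether a library pools mice is not given, so the p-values here cover variation among libraries, which may be technical in part.

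A dividing cell copies its DNA in S phase and separates the copies in mitosis, and most genes of the 2 phases are transcribed mainly when they are needed. E2F factors drive many S phase genes, and B-Myb and Foxm1, with the MuvB complex, drive many mitotic genes later. Cells that leave the cycle shut both sets down, and the MCM helicase RNAs and proteins tend to be longer lived than those of mitotic regulators. Treg cells in lymphoid organs include a dividing minority with an activated phenotype. In bulk RNA, fewer dividing cells and less RNA per dividing cell cannot be told apart.

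Libraries held 17180577 to 18215168 estimated reads. Tkt had 52.5, 44.8 and 31.9 CPM (counts per library size after scaling) in the cKO libraries and 126, 97.1 and 121 CPM in the WT libraries, a log2 fold change of -1.41 ± 0.19 (SE). Its adjusted p in edgeR's quasi-likelihood test was 0.0516, with a range of 2.17e-10 to 0.217 over 17 alternatives. Foxp3 averaged 620.4 ± 58.8 CPM in cKO and 598 ± 123 CPM in WT cells (SD, n = 3 each). Cd8a stood at 2.02 to 5.67 CPM over all libraries. The first principal component held 36.1% of the variance. On it cKO1 and WT2 lay lowest at -33.25 and -25.4, then cKO2 at -8.11, and the rest at 18.4 to 25.9. On the second, with 21.9%, the cKO libraries lay at 6.06 to 20.8 and the WT libraries at -30.6 to -3.60.

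Promoters of this gene family carry letters that its regulators are known to bind, and several are shown as examples from mitotic and S phase genes. CCAAT is the box read by NF-Y, TTTGAA is the cell cycle homology region (CHR) bound by MuvB complexes, and E2F factors bind cores, here searched as TTCCCGC, or with CG in place of its CC (TTCGCGC), or as TTGCCGC, or last as TTGGCGC. Sequences are RefSeq windows of GRCm38.p6, the build that mm10 names, and each line below gives the 100 bases before the start site, 5′ to 3′ on the gene's strand. Capitals mark any of these motifs on either strand. RefSeq windows were matched for 40 of the 49 genes.
Prc1, chr7:80294376-80294475, plus strand: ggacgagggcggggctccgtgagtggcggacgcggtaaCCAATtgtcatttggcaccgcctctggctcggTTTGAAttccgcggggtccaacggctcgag
Top2a, chr11:99024190-99024289, minus strand: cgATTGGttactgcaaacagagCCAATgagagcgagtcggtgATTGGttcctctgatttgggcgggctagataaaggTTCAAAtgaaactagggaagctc
Cdk1, chr10:69352913-69353012, minus strand: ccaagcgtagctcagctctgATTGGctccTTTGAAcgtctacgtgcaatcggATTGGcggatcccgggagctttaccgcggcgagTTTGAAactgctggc
Ube2c, chr2:164769829-164769928, plus strand: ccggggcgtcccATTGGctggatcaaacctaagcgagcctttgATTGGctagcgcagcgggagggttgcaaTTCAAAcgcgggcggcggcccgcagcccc
Cdc20, chr4:118437344-118437443, minus strand: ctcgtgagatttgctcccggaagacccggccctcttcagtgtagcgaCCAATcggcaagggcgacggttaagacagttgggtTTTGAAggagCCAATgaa
Mcm6, chr1:128359706-128359805, minus strand: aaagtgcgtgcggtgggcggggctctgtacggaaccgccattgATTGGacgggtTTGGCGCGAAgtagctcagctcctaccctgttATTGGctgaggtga
Cdk2, chr10:128705052-128705151, minus strand: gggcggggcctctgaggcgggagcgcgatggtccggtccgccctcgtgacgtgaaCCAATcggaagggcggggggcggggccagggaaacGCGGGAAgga

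The 5 mitotic promoters shown hold a CHR and at least 1 CCAAT box within 100 bases of the start site. The 2 S phase promoters shown hold an E2F core and no CHR there. No other S phase window held such a core within 100 bases, while mitotic Mki67 and a window of Ect2 did. The examples do not stand for all: the S phase promoter of Mcm2 and a window of E2f2 held a CHR within 100 bases. Another Prc1 window held none there, and mitotic Birc5 and S phase E2f1 held none of the motifs over 250 bases. In Mcm6 a core on each strand overlaps in the run TTGGCGCGAA. Over the 250 bases before the start site, a CCAAT box was found in 22 of 28 windows of mitotic genes (78.6%), in 11 of 16 windows of S phase genes (68.8%) and in 33.8% of all 32851 windows. TTTGAA was found in 10 mitotic windows (35.7%), in 3 S phase windows (18.8%) and in 16.0% of all windows. An E2F core was found in 5 mitotic windows (17.9%), in 6 S phase windows (37.5%) and in 7.89% of all windows. These are matches of letters, with no test and no measure of binding.

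The mitotic genes had lower mean levels in cKO than in WT libraries throughout, and no gene of the family passed the test. All 32 mitotic genes, by edgeR, had a log2 fold change below 0, from -0.74 to -0.19 with a median of -0.53. Of the 17 S phase genes 13 were below 0, with a median of -0.08 and a range of -0.52 to 0.14. Over all genes tested 48.6% were below 0 and the median was 0.004. In edgeR's quasi-likelihood test, 0 of 49 genes were called at an adjusted p under 0.05, against 0.21% of all genes (0.202% lower and 0.00776% higher in cKO), and the lowest adjusted p was 0.304 (Prc1). DESeq2 also called 0 of the 49, against 1.37% of all genes (1.19% lower in cKO), and limma-voom called 0. At an unadjusted p under 0.05 edgeR gave 4 of the 49, all lower in cKO, against 7.69% of all genes (5.01% lower and 2.68% higher).

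**Figure D1:**
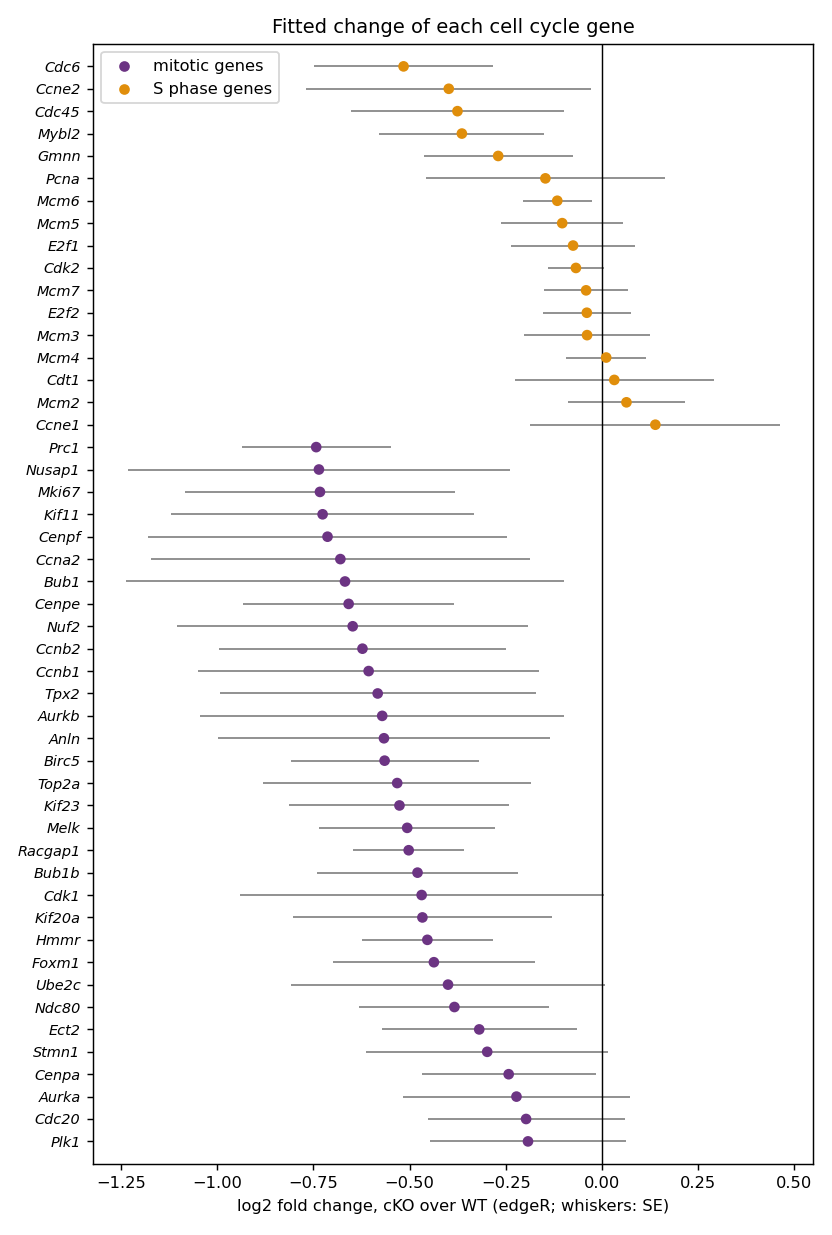
Fitted log2 fold change of each of the 49 genes, cKO over WT, with its standard error as the whisker; purple points are mitotic genes and orange points S phase genes. All 32 purple points lie left of 0, from -0.74 to -0.19, while the orange points run from -0.52 to 0.14.

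A single library, cKO1, stood lowest for most of the family. It was the lowest of the 6 libraries for 41 of the 49 genes, against 20.5% of all genes, and for 30 of the 32 mitotic genes. Its level was a median of 0.421 of the WT mean over the mitotic genes, and 21 of the 32 were under 0.5 of the WT mean, against 3.5% of all genes. For the S phase genes the median was 0.824. The libraries cKO2 and cKO3 averaged a median of 0.836 of the WT mean over the mitotic genes and 0.974 over the S phase genes. WT2 and WT3 were lowest for 2 and 3 of the 49 genes, against 25.8% and 11.2% of all genes, cKO3 for 3 against 14.8%, and WT1 and cKO2 for 0, against 14.6% and 12.9%. WT libraries differed among themselves: WT3 was the lowest WT library for 29 of the 32 mitotic genes, against 27.7% of all genes, at a median of 0.656 of the mean of WT1 and WT2.

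**Figure D2:**
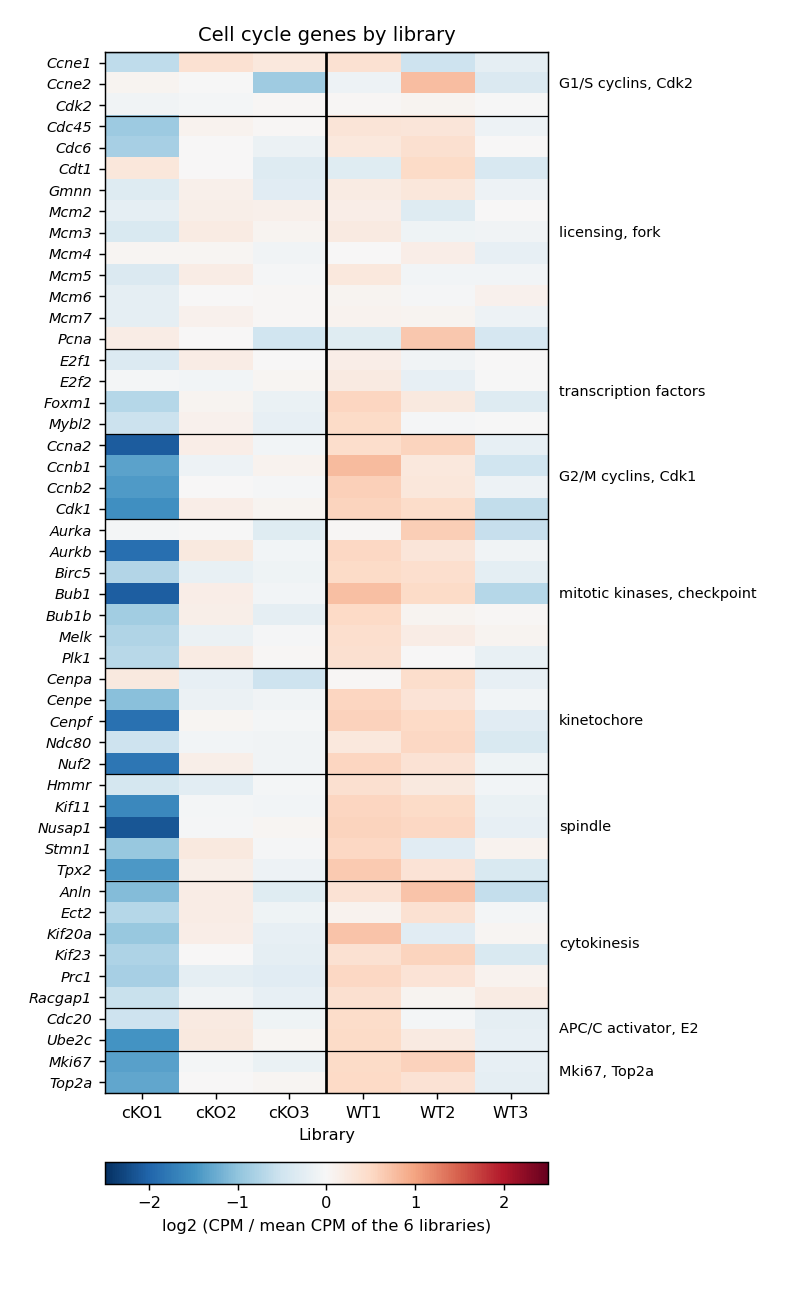
Level of each gene in each library as the log2 of its CPM over the mean CPM of the 6 libraries, with cKO libraries left of the thick line, WT libraries right of it, and genes grouped by role. The column of cKO1 is the lowest for 41 of 49 genes, and WT1 is the highest for 30.

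cKO2 and cKO3 lay inside the WT range for many genes. cKO2 was above WT3 for 26 of the 32 mitotic genes and cKO3 for 23, against 49.7% and 50.5% of all genes. Every cKO library was below every WT library for 5 of the 49 genes (Prc1, Racgap1, Cenpe, Melk and Cdc6), against 8.12% of all genes. Without WT3 the count was 27, against 11.2% of all genes with the same libraries. It was 5 without cKO1 (12.4% of all genes), 9 without cKO2 (12.9%), 6 without cKO3 (12.2%), 4 without WT1 (10.9%) and 5 without WT2 (15.5%).

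Without cKO1 the median log2 fold change of the mitotic genes was -0.26, and 31 of 32 were below 0. For the S phase genes it was -0.04 without cKO1, and -0.17 without cKO2. Without both cKO1 and WT2 the mitotic median was -0.21, with 28 of 32 below 0. No gene of the family was called in any of these fits by edgeR, and 2 of the 49 had an unadjusted p under 0.05 both without cKO1 and without the pair. Over all genes that number was 844 of 13078 without cKO1 and 1475 of 12917 without the pair.

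Summed over genes, the mitotic set spread more widely over the libraries than the S phase set, and the lowest mitotic sum was that of cKO1. The 32 mitotic genes summed to 229.6, 450.2 and 410.5 CPM in cKO1, cKO2 and cKO3, and to 613 CPM in WT1, 569 CPM in WT2 and 399.5 CPM in WT3. cKO1 was far below the rest, and cKO2 and cKO3 lay just above WT3. The 17 S phase genes summed to 903, 999.7 and 889 CPM in the cKO libraries and to 979, 1088 and 868 CPM in the WT libraries, ranges that overlapped. The ratio of the mitotic to the S phase sum was 0.254, 0.450 and 0.462 in cKO1, cKO2 and cKO3, and 0.626, 0.523 and 0.460 in WT1, WT2 and WT3. These sums weight abundant genes most, Mki67 and Top2a among the mitotic genes and Pcna among the S phase genes. On a scale that weights genes equally, the mean log2 CPM of the mitotic genes was 2.91 ± 0.60 in cKO and 3.48 ± 0.35 in WT libraries (SD, n = 3 each), a difference of -0.57. That of the S phase genes was 4.86 ± 0.18 in cKO and 4.99 ± 0.14 in WT libraries, a difference of -0.13. The mitotic difference minus the S phase one was -0.44, and -0.175 without cKO1. These summary levels are descriptions without a test, since the genes were chosen with earlier results known.

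**Figure D3:**
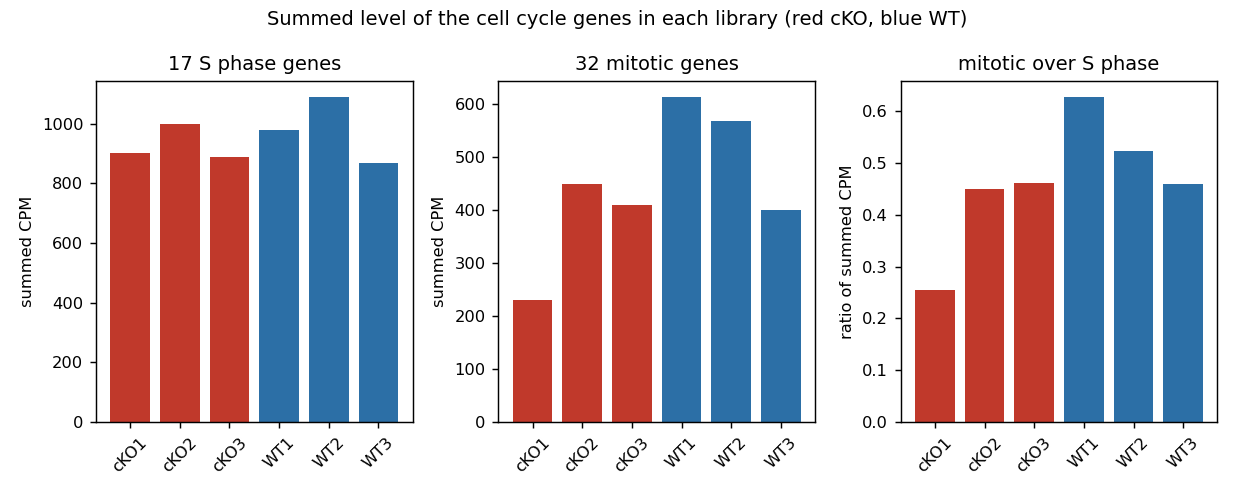
Summed CPM of the 17 S phase genes and of the 32 mitotic genes in each library, and the ratio of the mitotic to the S phase sum; red bars are cKO libraries and blue bars WT libraries. cKO1 has the lowest mitotic sum (229.6 CPM) and the lowest ratio (0.254), while its S phase sum of 903 CPM lies inside the WT range.

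Among the G1/S regulators, levels were alike in both groups or differed by library. Cdk2, the kinase that cyclin E activates at S phase entry, had 42.6, 44.0 and 46.7 CPM in the cKO libraries and 46.6, 47.8 and 45.3 CPM in the WT libraries (log2 fold change -0.07 ± 0.07 SE). The groups overlapped, and its standard error was the smallest of the 49. Ccne2, a cyclin E gene, had 5.24, 4.92 and 2.70 CPM in cKO and 4.57, 8.53 and 3.90 CPM in WT libraries, high in WT2 and low in cKO3. Ccne1, the other cyclin E gene, had the highest fitted change of the family at 0.14 ± 0.32 (SE), with its lowest level in cKO1. Neither cyclin gene separated the groups.

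The replication licensing genes load and run the MCM helicase. Cdc6, a loader of the helicase, had 4.83, 8.61 and 7.80 CPM in cKO and 10.4, 11.4 and 8.62 CPM in WT libraries, with cKO2 just under WT3. Its log2 fold change of -0.52 ± 0.23 (SE) was the lowest of the S phase genes, and its adjusted p by edgeR was 0.680. The 6 helicase subunits Mcm2 to Mcm7 had log2 fold changes from -0.12 (Mcm6) to 0.06 (Mcm2), and none separated the groups. Their sum was 465, 575 and 540.2 CPM in cKO and 583, 522 and 516 CPM in WT libraries, low in cKO1 alone. Mcm6 had 95.7, 112 and 114 CPM in cKO and 118, 109 and 121 CPM in WT libraries. Cdc45, which joins the active helicase, had a log2 fold change of -0.38 ± 0.28 (SE). Gmnn, encoding geminin, the inhibitor of Cdt1, had -0.27 ± 0.19 (SE).

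Pcna and Cdt1 followed another order of libraries. Pcna, the sliding clamp of DNA polymerases and by FPKM (per length) the most abundant gene of the family, had 239, 213 and 149 CPM in cKO and 171, 337 and 157 CPM in WT libraries. It was highest in WT2 and cKO1, and the groups overlapped in part (log2 fold change -0.15 ± 0.31 SE, adjusted p = 0.976 by edgeR). Without WT2 its log2 fold change was 0.29. Mouse Pcna has processed pseudogenes and Stmn1 has a related sequence, so the levels of both genes are uncertain where the authors' counting split reads. Cdt1, which licenses origins with Cdc6, had 56.1, 46.2 and 36.5 CPM in cKO and 37.1, 64.0 and 34.7 CPM in WT libraries, again highest in WT2 and cKO1.

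The transcription factors of the family each had a log2 fold change below 0. E2f1 and E2f2, activators of S phase genes, had log2 fold changes of -0.08 and -0.04. E2f2 had 60.6, 60.4 and 65.3 CPM in cKO and 73.8, 54.8 and 62.9 CPM in WT libraries, with full overlap. Mybl2, encoding B-Myb, had 6.54, 10.2 and 8.21 CPM in cKO and 13.3, 9.24 and 9.48 CPM in WT libraries (log2 fold change -0.36 ± 0.21 SE). cKO2 exceeded WT2 and WT3 there. Foxm1, the activator of late mitotic genes, had -0.44 ± 0.26 (SE), with cKO1 lowest and WT1 highest.

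The cyclins of G2 and mitosis and their kinase were low in cKO1, while WT3 lay below cKO2 and cKO3. Cdk1, the kinase that drives entry into mitosis, had 1.57, 5.07 and 4.79 CPM in cKO and 6.65, 6.22 and 2.98 CPM in WT libraries. WT3 was thus below cKO2 and cKO3 (log2 fold change -0.47 ± 0.47 SE). Ccnb2, a cyclin B gene, had 2.56, 6.92 and 6.68 CPM in cKO and 10.3, 8.31 and 6.31 CPM in WT libraries (log2 fold change -0.62 ± 0.37 SE, adjusted p = 0.809 by edgeR). Ccna2, encoding cyclin A2, stood in cKO1 at 0.192 of the WT mean, and the other cKO libraries averaged 0.838 of it. Ccnb1, the other cyclin B gene, stood at 0.325 and 0.820 on the same measure.

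Mitotic kinases and checkpoint genes had log2 fold changes from -0.67 to -0.19. Birc5, encoding survivin, a subunit of the chromosomal passenger complex, had 5.48, 8.02 and 8.48 CPM in cKO and 12.6, 12.2 and 7.72 CPM in WT libraries (log2 fold change -0.56 ± 0.24 SE). WT3 lay below cKO2 and cKO3 there. Aurkb, the kinase of the same complex, had -0.57 ± 0.47 (SE), and Bub1 and Bub1b, kinases of the checkpoint, had -0.67 ± 0.57 and -0.48 ± 0.26 (SE). Bub1 in cKO1 was at 0.194 of the WT mean. Melk, a kinase raised in dividing cells, had a log2 fold change of -0.51 ± 0.23 (SE) and groups that did not overlap, at 3.02 to 4.96 CPM in cKO and 5.29 to 6.77 CPM in WT libraries. Plk1, a kinase of many mitotic steps, and Aurka, the kinase of spindle poles, were nearest to 0 in this class, at -0.19 ± 0.25 and -0.22 ± 0.30 (SE). Aurka was highest in WT2 and lowest in WT3.

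Kinetochore genes, which tie chromosomes to the spindle, included 1 gene with every cKO library below every WT library, as for 8.12% of all genes. Cenpe, a kinetochore motor, had 4.42, 8.23 and 8.52 CPM in cKO and 13.3, 11.5 and 8.73 CPM in WT libraries (log2 fold change -0.66 ± 0.27 SE, adjusted p = 0.634 by edgeR). cKO3 lay just under WT3. Cenpa, the histone H3 variant of centromeres and the most abundant of the class by FPKM, had 32.3, 23.7 and 19.1 CPM in cKO and 27.9, 37.1 and 23.8 CPM in WT libraries. It was the only mitotic gene with cKO1 above the WT mean, at a ratio of 1.09. Cenpf, Nuf2 and Ndc80, an outer kinetochore protein and 2 subunits of the NDC80 complex, had -0.71, -0.65 and -0.38 as log2 fold changes.

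Spindle genes had log2 fold changes from -0.74 to -0.30. Hmmr, a microtubule-associated protein also known as a hyaluronan receptor, had 7.22, 8.13 and 9.47 CPM in cKO and 13, 11.7 and 9.33 CPM in WT libraries (log2 fold change -0.45 ± 0.17 SE, adjusted p = 0.562 by edgeR). Only cKO3 and WT3 crossed. Stmn1, which destabilises microtubules and was the most abundant of the class by FPKM, had 14, 32 and 26.2 CPM in cKO and 38.5, 22.0 and 28.5 CPM in WT libraries. Kif11, the motor that separates spindle poles, and Nusap1 and Tpx2, which bind spindle microtubules, had -0.73, -0.74 and -0.58. Nusap1 showed the deepest value in cKO1 of the family, at 0.182 of the WT mean.

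Of the cytokinesis genes, Prc1 and Racgap1 had the lowest p-values of the family by edgeR. The others, Kif23, Kif20a, Anln and Ect2, ranked 11, 22, 26 and 28 by p in the family. Prc1, which bundles microtubules of the spindle midzone, had 5.92, 8.96 and 8.60 CPM in cKO and 15, 13.2 and 11.1 CPM in WT libraries. Every cKO library was below every WT library, with means of 7.83 ± 1.66 CPM in cKO and 13.1 ± 1.96 CPM in WT libraries (SD, n = 3 each). Its log2 fold change was -0.74 ± 0.19 (SE), with an adjusted p of 0.304 by edgeR and a range of 0.0868 (DESeq2) to 0.846 (without WT1) over 17 alternatives, none of which called it. cKO2 and cKO3 averaged 0.670 of the WT mean for Prc1, the lowest such ratio among the mitotic genes. Racgap1, a subunit of the centralspindlin complex, had 17.2, 23.7 and 22.1 CPM in cKO and 33.4, 26.5 and 29.2 CPM in WT libraries. These groups did not overlap either, and the log2 fold change was -0.50 ± 0.14 (SE, adjusted p = 0.362 by edgeR). Kif23, the motor subunit of centralspindlin, had -0.53 ± 0.29 (SE), and its groups overlapped. Kif20a, Anln and Ect2, a midzone motor, a scaffold of the contractile ring and an activator of RhoA, had -0.47, -0.57 and -0.32.

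The genes of exit from mitosis had the lowest level in cKO1 and overlapped between groups. Ube2c, the ubiquitin-conjugating enzyme of the anaphase-promoting complex, had 2.78, 9.23 and 8.05 CPM in cKO and 10.8, 9.03 and 6.78 CPM in WT libraries (log2 fold change -0.40 ± 0.41 SE). Only cKO1 was outside the WT range. Cdc20, an activator of the complex, had -0.20 ± 0.26 (SE).

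Mki67 and Top2a, the usual markers of dividing cells, had the largest CPM among the mitotic genes. Mki67, which encodes Ki-67, had 35.3, 88.2 and 81.0 CPM in cKO and 126, 136 and 78.3 CPM in WT libraries. WT3 lay below cKO2 and cKO3, and cKO1 was lowest (log2 fold change -0.73 ± 0.35 SE, adjusted p = 0.719 by edgeR). Top2a, the topoisomerase that untangles sister chromosomes, had 22.1, 54.6 and 55.8 CPM in cKO and 75.9, 69.5 and 46.3 CPM in WT libraries (log2 fold change -0.53 ± 0.35 SE). WT3 again lay below cKO2 and cKO3.

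**Figure D4:**
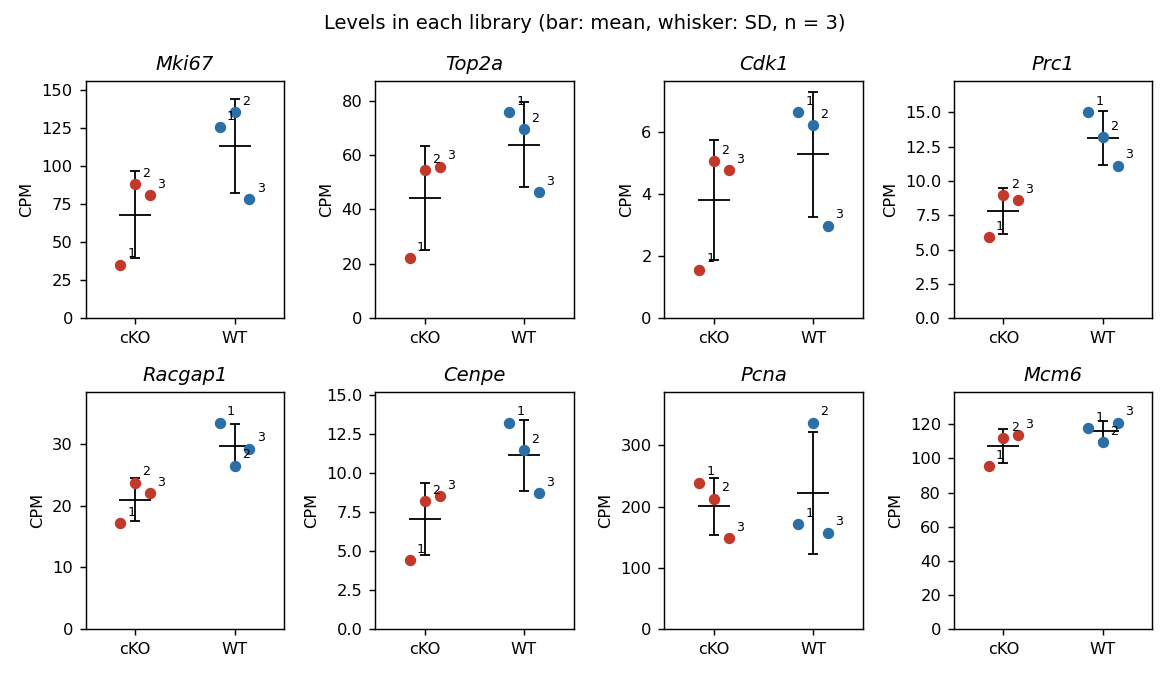
CPM of 8 genes in each cKO library (red) and WT library (blue), with replicate numbers beside the points, the mean as a bar and the SD as whiskers (n = 3 each). Prc1, Racgap1 and Cenpe do not overlap between groups, Mki67, Top2a and Cdk1 are lowest in cKO1 with WT3 beside cKO2 and cKO3, and Pcna is highest in WT2.

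Levels per length set the phases apart in both groups. The median FPKM of the 17 S phase genes was 16.9 to 21.2 in the cKO libraries and 16.0 to 20.0 in the WT libraries. That of the 32 mitotic genes was 1.59, 3.33 and 2.98 in cKO1, cKO2 and cKO3, and 4.90, 4.08 and 2.92 in WT1, WT2 and WT3. Pcna averaged 154 ± 32.4 FPKM in cKO and 169 ± 67.6 FPKM in WT libraries (SD, n = 3 each), and Anln, the lowest, 0.36 ± 0.145 FPKM in cKO and 0.56 ± 0.28 FPKM in WT libraries. Bub1 had the lowest count of the family, 17 estimated reads in cKO1.

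The rest of the cell cycle was read from 11 lists of genes outside the 49, which share some genes among themselves. No gene of any list was called by edgeR or DESeq2, and at most 2 genes of a list had an unadjusted p under 0.05 by edgeR. Of 34 other S phase genes, 32 had a log2 fold change below 0, with a median of -0.16, and 2 had an unadjusted p under 0.05. The lowest p was that of Tyms, the thymidylate synthase, at 20.1, 23.2 and 24.3 CPM in cKO and 31.2, 28.5 and 27.9 CPM in WT libraries (log2 fold change -0.37 ± 0.10 SE, adjusted p = 0.304 by edgeR). Of 32 other G2/M genes, 27 were below 0, with a median of -0.23. Ckap5, a microtubule polymerase, had 51.9, 57.4 and 56.0 CPM in cKO and 64.5, 67.8 and 60.6 CPM in WT libraries (log2 fold change -0.22 ± 0.08 SE). These lists were lowest in cKO1 for 24 of 34 and 20 of 32 genes.

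Other mitotic machinery had medians from -0.26 to -0.02. Of 29 kinetochore and checkpoint genes outside the 49, 25 were below 0 with a median of -0.26, and Mad2l1, a checkpoint protein, had -0.49 ± 0.19 (SE). Condensin and cohesin (23 genes) had a median of -0.05, with Smc2, a condensin subunit, at -0.23 ± 0.11 (SE). The anaphase-promoting complex (17 genes) had a median of -0.02. Its listed inhibitor Fbxo5, encoding Emi1, had 7.31, 11.3 and 12.7 CPM in cKO and 16.8, 16.0 and 15.7 CPM in WT libraries, groups that did not overlap (log2 fold change -0.63 ± 0.20 SE, adjusted p = 0.431 by edgeR).

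Of 35 origin, helicase and polymerase genes, 25 were below 0 with a median of -0.04. Pola1, the catalytic subunit of DNA polymerase alpha, had 10.2, 15.2 and 13.3 CPM in cKO and 17.6, 19.1 and 16.6 CPM in WT libraries (log2 fold change -0.46 ± 0.15 SE, adjusted p = 0.496 by edgeR). Deoxynucleotide supply (11 genes) had a median of -0.22, with 8 below 0, and Tyms again had the lowest p.

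Regulators of cell cycle entry and arrest had medians from -0.09 to 0.04. D-type cyclins and their kinases (10 genes) had a median of 0.04, with 7 above 0. Mnat1, a subunit of the Cdk-activating kinase, had the lowest p, with a log2 fold change of -0.13 ± 0.09 (SE). Among 16 tested Cdk inhibitors, pocket proteins and antiproliferative genes, the median was -0.09. Cdkn2d, encoding p19Ink4d, an inhibitor of Cdk4 and Cdk6, had 42.8, 46.0 and 42.1 CPM in cKO and 35.5, 36.1 and 33.6 CPM in WT libraries. Every cKO library was above every WT library, as for 6.06% of all genes, and the log2 fold change was 0.31 ± 0.08 (SE, adjusted p = 0.247 by edgeR). The MuvB core, E2F and DP factors (13 genes) had a median of -0.05, and Lin9, a MuvB subunit, had -0.21 ± 0.09 (SE). The p53 targets (19 tested) had a median of -0.01, and Trp53inp1, a stress-induced p53 target, had -0.37 ± 0.13 (SE).

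**Figure D5:**
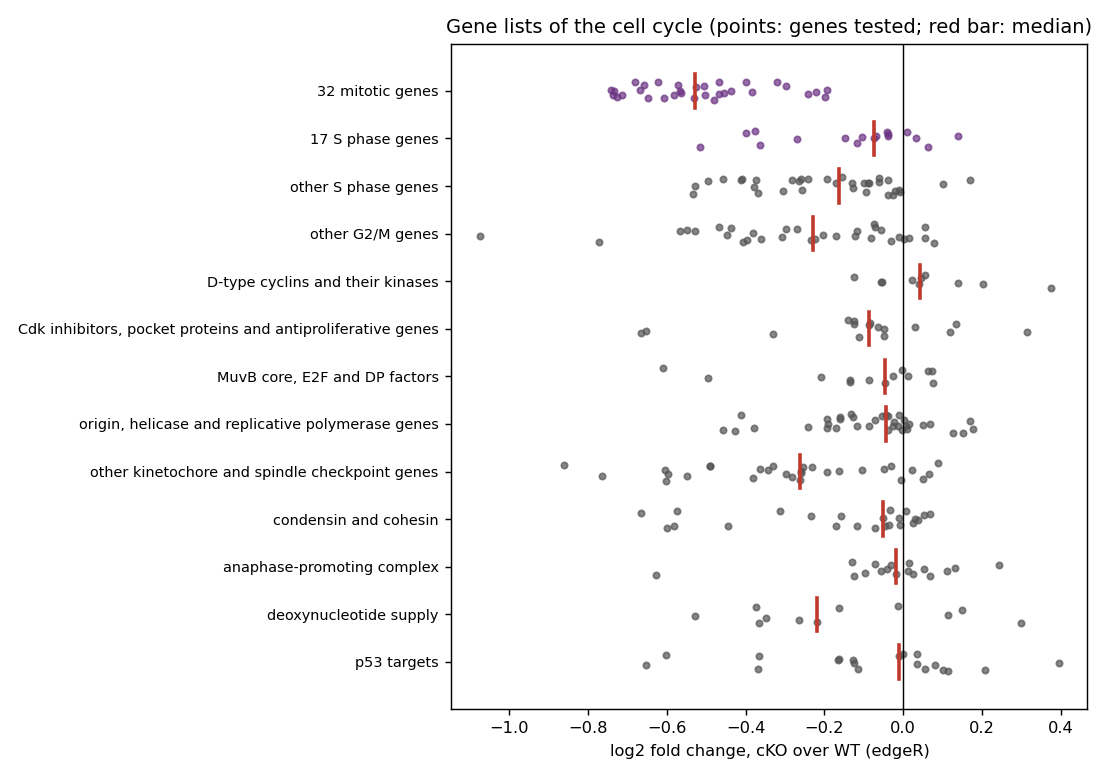
Log2 fold change, cKO over WT, of each tested gene in the 32 mitotic and 17 S phase genes (purple) and in the 11 other cell cycle lists (grey), with the median of each list as a red bar. The mitotic genes have the lowest median at -0.53, the other kinetochore genes follow at -0.26, and the D-type cyclins and their kinases lie at 0.04.

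Erythroid markers were high in cKO1, the library with the lowest mitotic levels. The 7 erythroid markers found in the table summed to 198.6, 4.03 and 3.55 CPM in cKO1, cKO2 and cKO3, and to 0.277 to 5.77 CPM in WT libraries, with Hba-a1 at 83.6 CPM in cKO1. The 10 B cell markers summed to 45.5 to 102 CPM in cKO and 54.5 to 78.4 CPM in WT libraries, with Cd74 the most abundant at 60.0 ± 26.8 CPM in cKO and 47.9 ± 13.2 CPM in WT libraries (SD, n = 3 each). The 10 myeloid markers summed to 218 to 273 CPM in cKO and 221 to 235 CPM in WT libraries, led by Ctss at 176 ± 0.86 CPM in cKO and 183 ± 14.3 CPM in WT libraries (SD, n = 3 each). Csf1r, the macrophage growth factor receptor, had 9.07, 22.0 and 2.40 CPM in cKO and 1.65, 4.25 and 1.46 CPM in WT libraries, highest in cKO2 and cKO1 (log2 fold change 2.19 ± 0.78 SE, adjusted p = 0.527 by edgeR). The median FPKM of the myeloid list was 1.75, 3.81 and 0.525 in the cKO libraries and 0.470, 0.745 and 0.635 in the WT libraries. The 5 plasma cell markers found summed to 94.0 to 131 CPM in cKO and 91.5 to 165 CPM in WT libraries, nearly all of it Xbp1, which T cells also express, with Mzb1 at or near 0. The 7 CD8 T and NK cell markers summed to 34.7 to 42.3 CPM in cKO and 37.7 to 42.5 CPM in WT libraries, with Cd8b1 the most abundant in cKO and Nkg7 in WT libraries, and Ncr1 was at 0 in all libraries but cKO1. Nkg7, a granule protein of cytotoxic cells, had 9.83, 14.1 and 11.2 CPM in cKO and 21.4, 15.5 and 18.6 CPM in WT libraries, groups that did not overlap (log2 fold change -0.66 ± 0.17 SE, adjusted p = 0.304 by edgeR). The 7 Treg and T cell markers summed to 3895 to 4192 CPM in cKO and 4326 to 4743 CPM in WT libraries, with Ctla4 highest in cKO1 and WT2, Cd4 in cKO2, WT1 and WT3, and Il2ra in cKO3. The part of other cells in the levels of the cell cycle genes was not tested.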

How the data were processed

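The estimated counts per gene are as the authors deposited them, not normalized, and 45.4% to 46.3% of the values per library were not whole to within 0.01. The FPKM values were taken as the authors' normalized unit from how the values scale. They were used to compare levels between genes, for some levels by library and group, and as an alternative scale for the phase scores. Tools listed without role or order in the submitters' processing notes were DESeq2 1.16.1, featureCounts 1.5.0-p3 and HISAT2 2.0.5, with the build mm10. No source used here says whether counting used strand.

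Counts were rounded, filtered with filterByExpr (minimum count 10) and scaled by TMM. In R 4.3.3, edgeR 4.0.16 fitted a quasi-likelihood model on group alone, with Benjamini-Hochberg adjustment across 12887 genes. The standard error came from the F statistic, and log2 CPM used a prior count of 2. Estimated reads set the counting precision, and 956 genes carry a BGI identifier with no name. Alternatives were DESeq2 1.42.0, voom of limma 3.58.1, other scalings and filters, and libraries left out. Genes and lists were chosen with earlier results of these data known. Values in every library are given for Mki67, Top2a, Cdk1 and Pcna, and for the lowest p and highest FPKM of each role class. Of each list the gene with the lowest p is named, as none was called. Others named were chosen after their values were seen. With 3 libraries against 3 an exact permutation test cannot give a two-sided p under 0.1. The code was tested on simulated data.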

Additional observations from a re-analysis of the deposited data

How the results depend on the processing

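No gene of the family was called under any of the 17 alternatives. The count of all genes called was 27, against 177 with DESeq2, 43 with no filter, 48 with robust empirical Bayes and 71 without WT2 and cKO1, and it was 0 to 30 when 1 library was left out. With the replicate number as a block (replicate block) 0 genes were called, with 811 at an unadjusted p under 0.05 by edgeR. Same-numbered libraries correlated at -0.278, 0.0624 and 0.261 after each gene was centred within its group. Centring ties these values to one another, so they cannot settle whether the numbers pair mice. Leaving out 1 library gave a mean log2 CPM difference of -0.782 to -0.224 for the mitotic genes and of -0.229 to -0.0484 for the S phase genes, and -0.577 to -0.175 between the phases. Keeping only genes of the family found in published phase lists gave -0.589 (mitotic) and -0.203 (S phase). This was a choice within the family, not a separate set of genes. In the lists outside the family the difference was -0.304 for the other G2/M genes and -0.217 for the other S phase genes. For the family, log2(FPKM + 1) gave -0.400 (mitotic) and -0.108 (S phase). Signs of log2 fold changes turned in 25 of 289 fits of S phase genes and 7 of 544 of mitotic genes, all with libraries left out. With 1 library left out the ranges were -0.900 to -0.268 for Anln, -0.47 to 0.121 for Aurka, -0.0497 to 0.435 for Ccne1, -0.607 to 0.0234 for Ccne2, -0.402 to 0.0348 for Cdc20, -0.749 to -0.0996 for Cdk1, -0.128 to 0.364 for Cdt1, -0.204 to 0.0577 for E2f1, -0.138 to 0.0798 for E2f2, -0.532 to -0.108 for Ect2, -0.0632 to 0.18 for Mcm2, -0.167 to 0.115 for Mcm3, -0.0747 to 0.0999 for Mcm4, -0.247 to 0.0329 for Mcm5, -0.117 to 0.0513 for Mcm7, -0.341 to 0.285 for Pcna and -0.376 to 0.0306 for Plk1. Without WT2 and cKO1, values that turned from below to above 0 were 2.1e-05 for Anln, 0.0843 for Aurka, 0.0328 for Cdk1, 0.00503 for E2f1, 0.0157 for Ect2, 0.053 for Mcm3, 0.0813 for Mcm7 and 0.141 for Pcna. The cause was not tested. The lowest estimated count of a mitotic gene in a library was 17.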
